A study of Camelus dromedarius with 30 samples.

Results

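The genes described here are 103 genes of the dromedary (Camelus dromedarius) whose names mark them as parts of the machinery that moves membrane and cargo between the compartments of a cell. They were taken by name from the study's lists of genes or proteins that differed between water conditions in the kidney: every gene whose symbol begins with RAB, VPS, SNX, COP, SEC, STX, VAMP, EXOC, TRAPPC or ARF. The count table holds 22444 genes, and each of the 103 had a row in it and passed the filter on low counts that left 15376 genes for testing. Of these members, 84 came from the protein lists and 25 from the RNA lists, with 6 in both. The RNA lists were made from these same libraries, so a difference between conditions in a tissue where a member was RNA-listed (18 members in the cortex, 9 in the medulla, SNX32 and VPS9D1 in both) is described here without a test. The other members of a tissue entered that tissue's tests. The study's RNA list for rehydration against dehydration in the medulla was not used here, so a member tested in that contrast may stand in it. The name prefix also took in 7 genes that are not vesicle proteins, namely COPRS and 6 subunits of the COP9 signalosome (COPS2, COPS3, COPS5, COPS6, COPS7A and COPS8), and the gene listed as SNX29 carries the description of a TNF receptor in the same list. STX16-NPEPL1 is the name of a readthrough transcript, so its counts are not those of syntaxin 16 alone.

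Poly(A)-selected RNA was sequenced from kidney cortex and from kidney medulla of 15 male camels aged 4 to 5 years, which gave 30 libraries. Control camels (n = 5) drank freely, dehydrated camels (n = 5) went without water for 20 days, and rehydrated camels (n = 5) went without water for 20 days and then drank freely for 3 days. All camels were fed throughout, and per the study each camel gave both tissues. In rehydrated camels the library codes of the tissues carry different numbers, so which of these libraries share a camel is not settled. Each library came from a piece of frozen tissue with all of its cell types, so fewer cells of a type and less RNA per cell cannot be told apart.

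Rab and Arf GTPases are molecular switches that label compartments and recruit the proteins that act there. Coats (COPI, COPII) bud vesicles, tethers (TRAPP, exocyst, HOPS, CORVET, GARP, EARP) hold an arriving vesicle at its target, and SNAREs fuse the membranes, while sorting nexins, retromer, retriever and the ESCRT complexes decide which endosomal cargo is recycled and which is degraded. In the collecting duct of the kidney this machinery carries the water channel aquaporin 2 to the apical membrane when vasopressin acts and takes it back when it does not, and in the proximal tubule it recycles the receptors that retrieve filtered protein.

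The libraries held 12634346 to 20005136 counted read pairs, and the members together took 0.688% to 0.842% of the counts of a cortex library and 0.659% to 0.768% of those of a medulla library. A member had a median of 779 counts in a library. Levels are given in CPM, counts per 1000000 reads after TMM scaling of the library sizes, and levels of different genes are compared only in CPM per kilobase of annotated exon. On that scale the members had a median of 17.4 over all libraries, beside 6.44 for all tested genes. VAMP8, an endosomal SNARE used in regulated exocytosis, stood first among the members with a median of 530.1 CPM per kilobase, followed by COPS6 (147), SEC61B (144), COPZ1 (129) and TRAPPC4 (123). RAB37, a Rab of secretory vesicles, stood last with 0.927, below RAB8B (0.948) and EXOC8 (0.992). The ranges of these last 3 over the libraries overlap, so their order does not exceed their spread. Between animals of a group the median SD on the log2 CPM scale was 0.27 over the members and 0.45 over all tested genes.

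The first comparison is between the tissues of control camels, which the choice of members did not use. Of the 103 members, 66 (64.1%) differed between medulla and cortex (edgeR's quasi-likelihood test, adjusted p under 0.05), where 60.9% of all tested genes did, so the share of members is close to that of genes at large. The medulla was higher in 24 of them (23.3% of the members, beside 32.2% of all tested genes) and the cortex in 42 (40.8%, beside 28.6% of all tested genes). Their median log2 difference, medulla minus cortex, was -0.19, beside 0.10 for all tested genes. In 46 of the members that differed (44.7% of the 103) no cortex library overlapped a medulla library, where 42.3% of all tested genes differed without overlap. Of the 25 RNA-listed members, 17 were listed for a contrast with control, so their control libraries in that tissue took part in their selection, and 11 of these are among the 66 (COPS5, COPS6, RAB11B, RAB37, SEC61A1, SNX7, SNX24, TRAPPC6B, VPS26C, VPS35L and VPS52). Among the 78 members in no RNA list used here 49 differed, 21 towards the medulla and 28 towards the cortex. Of the 66 calls, 52 held under every alternative fit and without each library in turn. The 14 that did not were ARFIP1, COPG2, COPRS, RAB11B, RAB12, RAB18, SEC31A, SEC63, SNX24, TRAPPC3, VPS26C, VPS35L, VPS41 and VPS52, and 8 of them (ARFIP1, COPG2, COPRS, RAB11B, RAB18, SEC63, VPS35L and VPS41) were lost without cortex control replicate 3. The largest differences were in RAB11FIP1, RAB37 and STX11 towards the medulla and in VAMP8, TRAPPC6A and COPS6 towards the cortex.

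**Figure D1:**
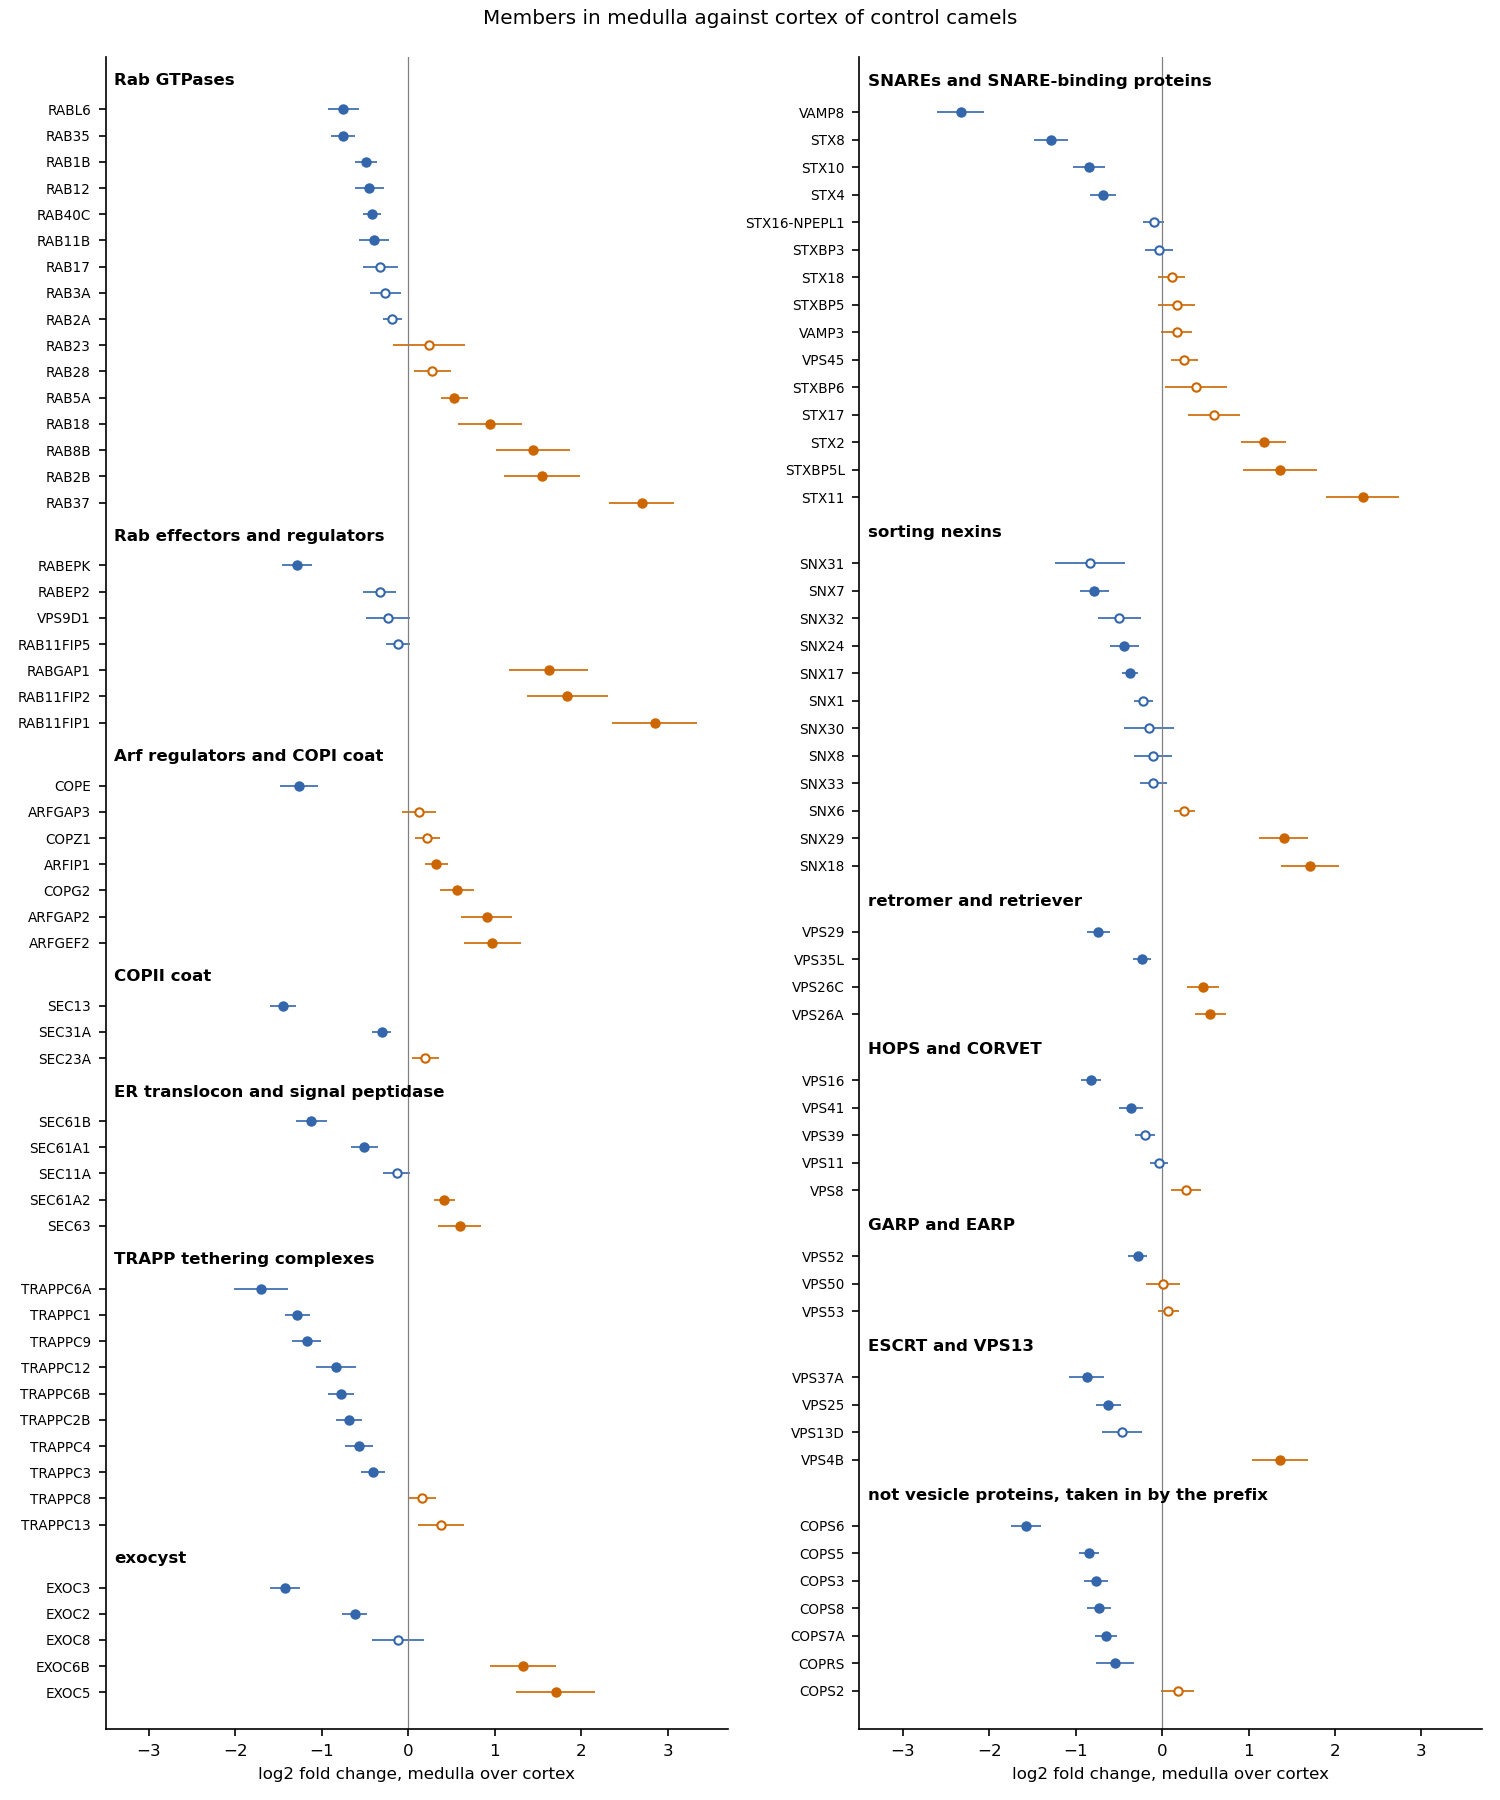
Fitted log2 fold change of each of the 103 members in medulla over cortex of control camels (x axis, with its standard error as a bar), grouped by role. Filled points passed an adjusted p of 0.05 (66 members). The 8 filled TRAPP subunits all lie to the left of 0, whereas the exocyst has filled points on both sides.

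RAB11FIP1 and RAB11FIP2 are effectors of the RAB11 GTPases of recycling endosomes, and both were higher in the medulla. RAB11FIP1 (chromosome 26, bases 4757620 to 4783094 of the CamDro2 assembly) had 16.4, 22.4, 1.87, 10.1 and 7.42 CPM in the 5 cortex libraries of control camels and 53.0, 109, 65.4, 86.8 and 111 CPM in the 5 medulla libraries. Every medulla library thus lay above every cortex library, and the fitted difference was 7.21-fold (log2 2.85 ± 0.49 SE, adjusted p = 2.1e-05). RAB11FIP2 (chromosome 11, bases 12688076 to 12724754) had 1.21 to 4.58 CPM in the cortex and 4.06 to 14.8 CPM in the medulla, with an overlap in single libraries and a 3.58-fold difference (log2 1.84 ± 0.47 SE, adjusted p = 0.0014). RAB11FIP5, another effector of this family, had 194 ± 27.9 CPM (SD, n = 5) in the cortex and 179 ± 42.9 CPM (SD, n = 5) in the medulla and did not pass the test (log2 -0.12 ± 0.14 SE). The GTPase RAB11B itself was 58.2 ± 9.39 CPM (SD, n = 5) in the cortex and 44.2 ± 4.44 CPM (SD, n = 5) in the medulla, and its difference (log2 -0.40, adjusted p = 0.048) lost the threshold with DESeq2 (adjusted p = 0.080).

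Among the 16 Rab GTPases and Rab-like proteins, 5 were higher in the medulla (RAB37, RAB2B, RAB8B, RAB18 and RAB5A) and 6 in the cortex (RABL6, RAB35, RAB1B, RAB12, RAB40C and RAB11B), or 68.8% called beside 60.9% of all tested genes. RAB37 (chromosome 16, bases 5913765 to 5970916) had 0.436 to 1.58 CPM in the control cortex and 6.78, 9.04, 5.01, 3.94 and 4.59 CPM in the control medulla, a 6.51-fold difference (log2 2.70 ± 0.37 SE, adjusted p = 1.1e-06). It was RNA-listed for the medulla, so its control medulla libraries took part in its selection. RAB2B, a Golgi Rab, had 9.95, 10.7, 0.197, 6.19 and 5.38 CPM in the cortex and 14.7, 21.7, 15.0, 19.9 and 25.1 CPM in the medulla, a log2 difference of 1.55 ± 0.44 SE. The very low value is cortex control replicate 3, and without it the RAB2B difference was 1.25 (adjusted p = 0.0080). RAB5A, the Rab of early endosomes, was 66.5 ± 17.3 CPM (SD, n = 5) in the cortex and 96.2 ± 5.01 CPM (SD, n = 5) in the medulla (log2 0.53, adjusted p = 0.0049), and RAB3A, a Rab of regulated secretion, did not pass the test (log2 -0.27, adjusted p = 0.20). Of the other Rab effectors and regulators, RABGAP1, a GTPase-activating protein for Rabs, was higher in the medulla (log2 1.63 ± 0.46 SE, adjusted p = 0.0033) and RABEPK, a protein that binds RAB9, was higher in the cortex (log2 -1.29 ± 0.18 SE, adjusted p = 8.8e-07).

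Of the 15 SNAREs and SNARE-binding proteins, 3 were higher in the medulla and 4 in the cortex, or 46.7% called beside 60.9% of all tested genes. VAMP8 (chromosome 28, bases 10679624 to 10684157) had 1505, 1386, 3243, 2441 and 3329 CPM in the control cortex and 626, 342, 558, 378 and 463 CPM in the control medulla. No medulla library reached the lowest cortex library, and the fitted level was 5.03-fold lower in the medulla (log2 -2.33 ± 0.27 SE, adjusted p = 8.2e-08). VAMP3, the SNARE of constitutive recycling, was 80.0 ± 24.8 CPM (SD, n = 5) in the cortex and 90.2 ± 4.25 CPM (SD, n = 5) in the medulla, and this difference (log2 0.17, adjusted p = 0.42) did not pass the test. Syntaxins were called in both directions. STX4, a syntaxin of the plasma membrane, was lower in the medulla (log2 -0.68 ± 0.15 SE), while STX11, known from the granule release of lymphocytes, had 0.296 to 2.04 CPM in the cortex and 4.17 to 7.69 CPM in the medulla (log2 2.32 ± 0.42 SE, adjusted p = 3.8e-05) and STX2 was also higher in the medulla (log2 1.17 ± 0.26 SE). STXBP3, which binds STX4, was 72.6 ± 17.5 CPM (SD, n = 5) in the cortex and 70.8 ± 5.12 CPM (SD, n = 5) in the medulla.

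The exocyst, the complex that tethers secretory and recycling vesicles to the plasma membrane, had 5 listed subunits. Of these, 2 were called towards the medulla and 2 towards the cortex, or 80% called beside 60.9% of all tested genes. Of all tested genes, 32.2% were called towards the medulla and 28.6% towards the cortex. EXOC5 (chromosome 6, bases 58350317 to 58395280) had 7.23, 8.07, 1.58, 1.74 and 1.85 CPM in the control cortex and 11.0, 15.7, 8.23, 17.1 and 16.5 CPM in the control medulla (log2 1.71 ± 0.46 SE, adjusted p = 0.0024). EXOC3 (chromosome 3, bases 119535018 to 119552399) went the other way, with 131, 131, 196, 176 and 174 CPM in the cortex and 66.2, 55.3, 65.1, 59.1 and 55.1 CPM in the medulla (log2 -1.42 ± 0.17 SE, adjusted p = 1.1e-07). In neither gene did the tissues overlap. EXOC6B sided with EXOC5 (log2 1.33 ± 0.38 SE) and EXOC2 with EXOC3 (log2 -0.62 ± 0.14 SE), and EXOC8, at 2.37 ± 0.953 CPM (SD, n = 5) in the cortex and 2.15 ± 0.253 CPM (SD, n = 5) in the medulla, did not pass the test. The 4 subunits that differed did so in the same direction in control, dehydrated and rehydrated camels, as 46.5% of all tested genes did.

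**Figure D2:**
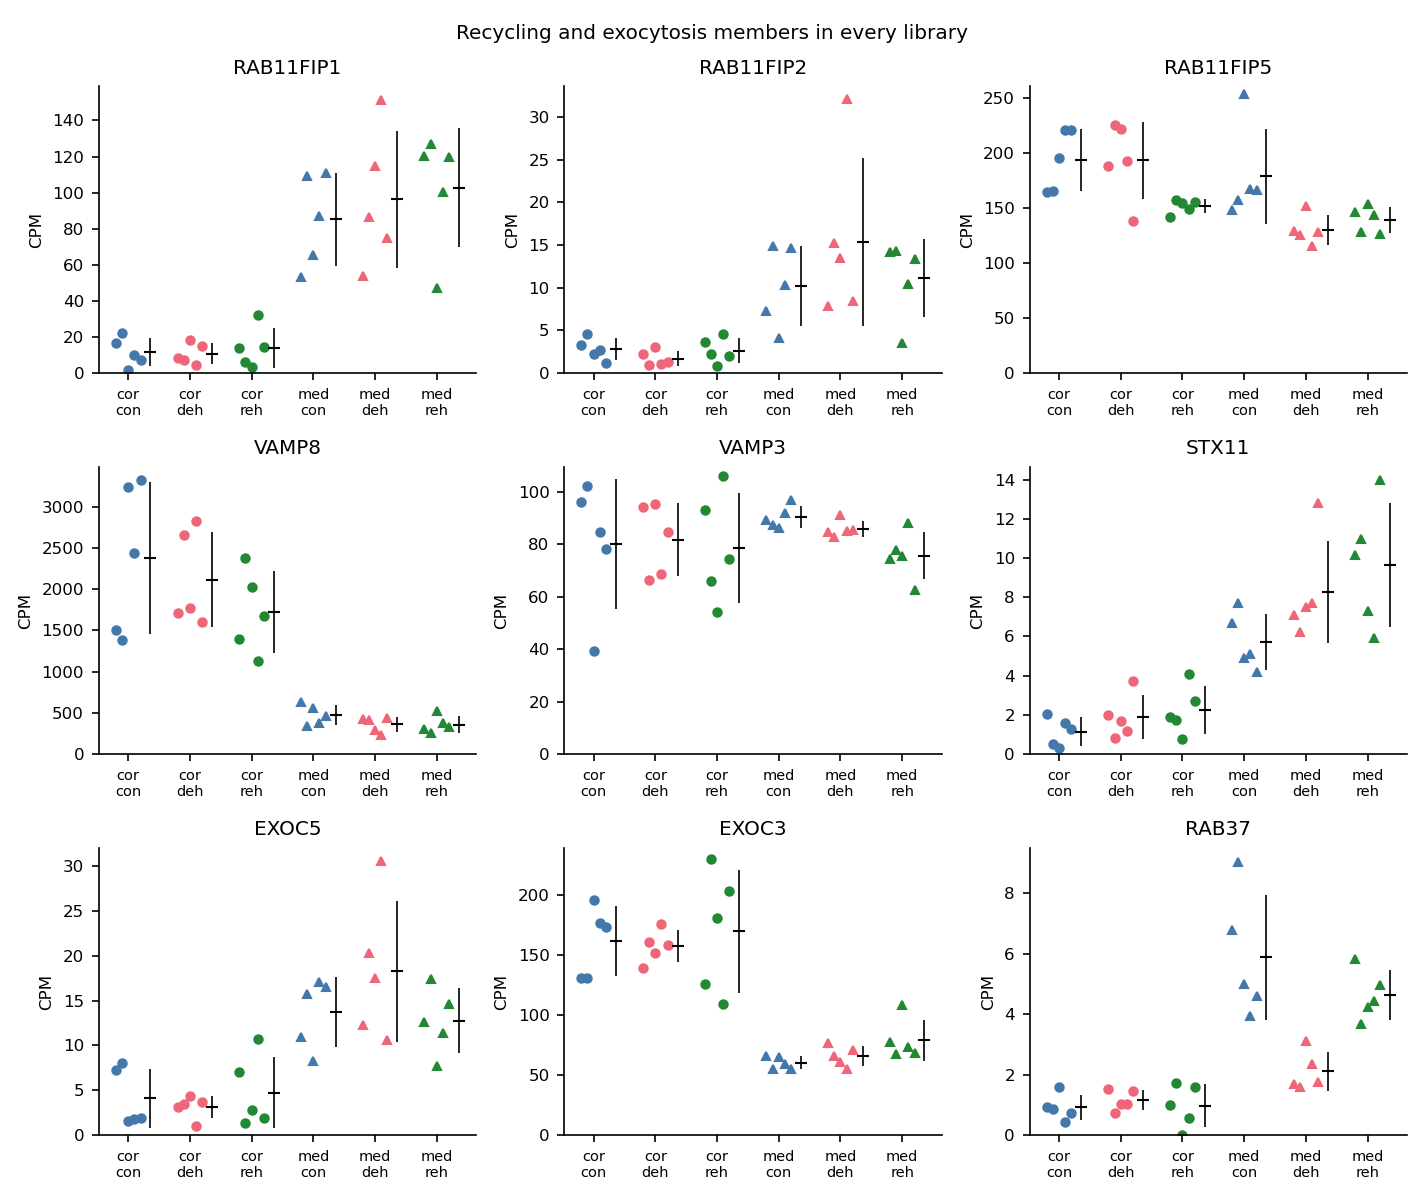
CPM (y axis, from 0) of 9 members in each of the 30 libraries, by group (x axis: cor, cortex; med, medulla; con, control; deh, dehydrated; reh, rehydrated). Black marks show the group mean and SD (n = 5). In control camels RAB11FIP1, STX11, EXOC5 and RAB37 sit higher in every medulla library than in every cortex library, VAMP8 and EXOC3 sit lower, and RAB11FIP5 and VAMP3 overlap.

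TRAPP complexes tether vesicles at the Golgi and activate Rabs there, and 8 of their 10 listed subunits (TRAPPC1, TRAPPC2B, TRAPPC3, TRAPPC4, TRAPPC6A, TRAPPC6B, TRAPPC9 and TRAPPC12) were higher in the cortex of control camels, where 28.6% of all tested genes were, and none was higher in the medulla, where 32.2% of all tested genes were. TRAPPC6A had 30.2, 22.5, 68.2, 43.3 and 45.7 CPM in the cortex and 14.3, 10.4, 14.1, 12.2 and 13.3 CPM in the medulla (log2 -1.70 ± 0.32 SE, adjusted p = 5.4e-05). TRAPPC1 had 95.7 ± 16.7 CPM (SD, n = 5) against 39.4 ± 5.72 CPM (SD, n = 5). Each of these 8 subunits was also higher in the cortex of dehydrated camels and of rehydrated camels. TRAPPC8 and TRAPPC13, the remaining subunits, passed the test in dehydrated camels alone of the 3 conditions, and there they were higher in the medulla (log2 0.50 and 0.92).

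Coat and translocon genes were mixed. SEC13, a subunit of the outer COPII cage that also belongs to the nuclear pore, had 170.5, 165, 218, 212 and 231 CPM in the control cortex and 85.6, 65.1, 70.6, 73.6 and 71.0 CPM in the control medulla, a 2.73-fold difference without overlap (log2 -1.45 ± 0.15 SE, adjusted p = 1.2e-08). COPE, a COPI subunit, was 243 ± 81.5 CPM (SD, n = 5) against 101 ± 12.9 CPM (SD, n = 5). Its COPI partner COPG2 and the Arf regulators ARFGAP2, ARFGEF2 and ARFIP1 went the other way, with log2 differences from 0.32 to 0.97. In the ER translocon, SEC61B (log2 -1.12 ± 0.18 SE) and SEC61A1 (log2 -0.51 ± 0.15 SE) were higher in the cortex, whereas SEC61A2 (log2 0.42 ± 0.12 SE) and SEC63, a translocon-associated J protein (log2 0.59 ± 0.25 SE), were higher in the medulla.

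On the endosomal side, SNX18, a nexin that bends membranes, had 2.21, 4.00, 1.28, 0.784 and 1.76 CPM in the control cortex and 5.30, 9.46, 5.23, 6.51 and 7.34 CPM in the control medulla (log2 1.71 ± 0.33 SE, adjusted p = 9.9e-05). The gene listed as SNX29 was also higher in the medulla (log2 1.41 ± 0.28 SE), and SNX7, SNX17 and SNX24 were higher in the cortex. All 4 members of retromer and retriever, the complexes that lift cargo out of endosomes, differed, where 60.9% of all tested genes did. VPS26A (log2 0.55) and VPS26C (log2 0.47) were higher in the medulla. VPS29, which belongs to both complexes, was higher in the cortex (log2 -0.74 ± 0.13 SE, adjusted p = 2.5e-05), and VPS35L was slightly higher there (log2 -0.23, adjusted p = 0.048). The VPS26C and VPS35L calls were lost under some alternative fits and without some single libraries. VPS4B, the ATPase that disassembles ESCRT, had 5.03 to 21.6 CPM in the cortex and 25.7 to 41.2 CPM in the medulla (log2 1.37 ± 0.32 SE), while the ESCRT subunits VPS25 and VPS37A were higher in the cortex. In the tethers HOPS and CORVET, VPS16 (90.1 ± 11.4 against 50.9 ± 2.77 CPM, SD, n = 5 each) and VPS41 were higher in the cortex. Of the genes that are not vesicle proteins, COPRS and 5 of the 6 COP9 signalosome subunits were higher in the cortex (28.6% of all tested genes were), led by COPS6 with 339 ± 61.1 against 114 ± 28.9 CPM (SD, n = 5 each, log2 -1.58 ± 0.18 SE). COPS6 and COPS5 were RNA-listed for dehydration against control in the cortex, so their control cortex libraries took part in their selection.

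These tissue differences recurred in the other camels. In dehydrated camels 76 members differed between the tissues (35 towards the medulla and 41 towards the cortex, which became 40 and 36 with DESeq2's size factors), where 65.4% of all tested genes were called. In rehydrated camels 61 did (21 and 40), where 61.1% of all tested genes were called. The 3 conditions use different animals. A set of 48 members (46.6%) passed the test in all 3 in the same direction, 16 towards the medulla and 32 towards the cortex, where 46.5% of all tested genes did so. In 18 members no condition passed. STXBP3 was the only member to pass in opposite directions, higher in the medulla of dehydrated camels (log2 0.51) and lower there in rehydrated camels (log2 -0.45). RAB11FIP1 (log2 3.13 and 2.88) and VAMP8 (log2 -2.55 and -2.27) were again the members furthest towards the medulla and the cortex in dehydrated and rehydrated camels.

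Other properties of the libraries moved with the tissue. Per the study the RNA integrity number averaged 8.1 in the control cortex and 8.5 in the control medulla. It averaged 7.7 and 8.8 in dehydrated camels, and 7.6 and 8.7 in rehydrated camels. The study's value for each sample was matched to a library by replicate number. Some library codes carry other numbers, so this match is an assumption. With the RNA integrity number as a covariate, 63, 63 and 45 members differed in the 3 conditions. Across genes, which are not independent replicates, the log2 difference between tissues of control camels had a Spearman's rho of 0.222 with annotated exon length over the 103 members and 0.207 over all tested genes. Members higher in the medulla had a median of 2324.5 exon bases and members higher in the cortex 1913.5, and for all tested genes these medians were 2718 and 1846. Of the cell type markers, UMOD and CLDN10 of the thick ascending limb (2 of 5 listed markers matched) summed to 3345 to 4963 CPM in the control cortex and 14537 to 20218 CPM in the control medulla. AQP2 and AQP3 of the principal cell (2 of 6) summed to 165 to 251 CPM and 217 to 556 CPM, and 3 of 5 endothelial markers summed to 219 to 269 CPM and 442 to 471 CPM. Proximal tubule markers (4 of 10) summed to 5039 to 7606 CPM in the cortex and 3742 to 6433 CPM in the medulla, so the medulla libraries also hold RNA of these genes. The single podocyte marker matched, SYNPO of 5, was higher in the medulla (6.26 to 12.6 CPM) than in the cortex (0.887 to 3.40 CPM). The part of RNA integrity, transcript length and cell makeup in the members' tissue differences was not tested beyond the covariate above.

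Pairs of related members allow a comparison inside a library, where the scaling to library size cancels, apart from the prior count, which pulls ratios of low genes towards 0. For 12 pairs, the log2 ratio of the CPM of the genes (prior count 2) was compared between the 5 medulla and 5 cortex libraries of control camels by a two-sided exact permutation test over 252 arrangements, whose smallest possible p is 0.0079, with Benjamini-Hochberg adjustment over the pairs. The ratio differed in 9 of the 12 pairs. Pairs of unrelated genes were not compared, and 60.9% of all tested genes differed between these tissues. Whether such counts are particular to related members was therefore not tested. All 4 pairs with no RNA-listed member passed (SNX18/SNX33, RAB11FIP1/RAB11FIP2, VAMP3/VAMP8 and ARFGAP2/ARFGAP3), as did RAB2A/RAB2B, whose listed member was not listed for a contrast with control. In the other 7 pairs, 4 of which passed (SEC61A1/SEC61A2, SNX6/SNX32, STXBP5/STXBP5L and RAB11FIP1/RAB11FIP5), a member was RNA-listed for a contrast with control, so these libraries took part in its selection. The ratio of RAB11FIP1 to RAB11FIP5 went from -4.43 ± 1.47 (SD, n = 5) in the cortex to -1.10 ± 0.61 (SD, n = 5) in the medulla, and that of VAMP3 to VAMP8 from -4.87 ± 1.07 to -2.35 ± 0.38 (exact permutation adjusted p = 0.012 for both). The balance of RAB2A to RAB2B went from 4.05 ± 1.95 down to 1.66 ± 0.26, and that of SEC61A1 to SEC61A2 from 2.38 ± 0.38 down to 1.47 ± 0.15, each without overlap between the tissues (exact permutation adjusted p = 0.012 for both). The RAB2A to RAB2B ratio of cortex control replicate 3 was 7.49, from a RAB2B level near 0. TRAPPC6A/TRAPPC6B (difference -0.83, exact permutation adjusted p = 0.057), SNX7/SNX30 (-0.65, adjusted p = 0.087) and VPS26A/VPS26C (0.10, adjusted p = 0.73) did not pass the test. In dehydrated and in rehydrated camels 8 of the 12 pairs passed, each time including RAB11FIP1/RAB11FIP5, VAMP3/VAMP8, SNX18/SNX33 and RAB2A/RAB2B. STXBP5/STXBP5L did not pass there, with differences of 0.66 and -0.02 beside -1.08 in control camels.

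**Figure D3:**
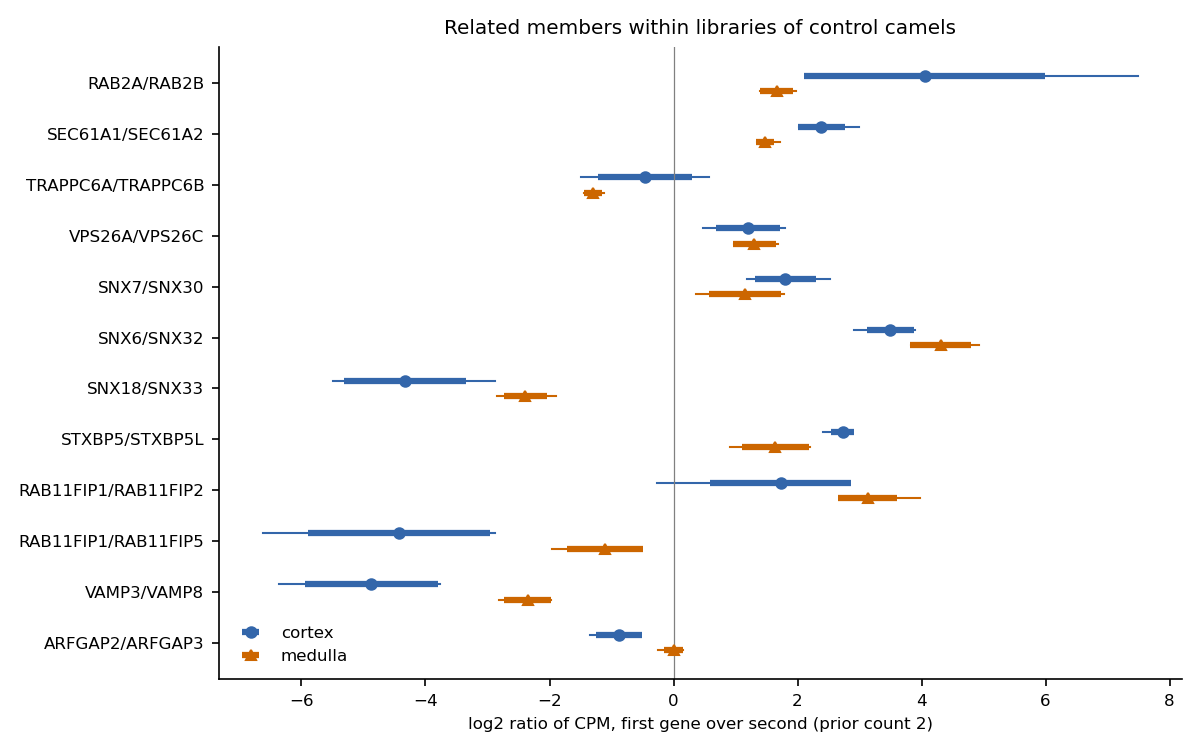
Log2 ratio of the CPM of paired members (x axis, first gene over second) in the cortex and the medulla of control camels. Points are means of 5 libraries, thick bars their SD, and thin lines run from the lowest to the highest library. The ranges of the tissues stand apart for RAB11FIP1/RAB11FIP5 and VAMP3/VAMP8 and overlap for VPS26A/VPS26C.

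Within a group, many members moved together from animal to animal. After each group mean was removed, a single component held 54.7% of the members' variance in log2 CPM, beside 33.1% for all tested genes. Counted by a correlation with this component beyond 0.7 in size, a bound set after the values were seen, 28 members moved one way, among them RAB18, RAB11FIP1, VPS4B, RABGAP1, RAB2B, EXOC5 and RAB11FIP2, and 18 the opposite way, among them COPE, VAMP8, EXOC3, TRAPPC6A, SEC13 and STX4. Of the 28, 15 were higher in the medulla of control camels and none in the cortex, and of the 18, 17 were higher in the cortex and none in the medulla. The 15273 tested genes that are not members also split by tissue: 17.4% of them passed the upper bound, of which 68.6% were higher in the medulla and 1.39% in the cortex, and 11.7% passed the lower bound, of which 72.8% were higher in the cortex and 2.74% in the medulla. The libraries at the low end were cortex control replicate 3 (score -6.15), cortex rehydration replicate 3 (-4.94), medulla rehydration replicate 3 (-4.42) and cortex rehydration replicate 2 (-3.09). In cortex control replicate 3, RAB11FIP1 was at 1.87 CPM where the other 4 libraries had 7.42 to 22.4. At the high end were cortex rehydration replicate 4 (5.15), with 32.1 CPM of RAB11FIP1, and cortex control replicates 2 (4.23) and 1 (3.56). The component is not particular to these genes: computed from the 15273 tested genes that are not members, it has the same 4 libraries at its low end. The first 3 of those 4 libraries had the fewest counts of their groups (12634346, 14143791 and 15780491). Markers of cell types moved alike only in part in these 4 libraries. The single podocyte marker matched, SYNPO, was the lowest of the group in cortex control replicate 3 (0.887 CPM, others 1.58 to 3.40). It was also lowest in cortex rehydration replicate 3 (0.963 CPM, others 1.33 to 7.73) and medulla rehydration replicate 3 (11.7 CPM, others 13.0 to 23.3). In cortex rehydration replicate 2 it was 1.33 CPM (others 0.963 to 7.73). The summed endothelial markers were the lowest in cortex control replicate 3 (219 CPM, others 253 to 269) and inside the range in the rest. The summed proximal tubule markers were the lowest of the group in cortex control replicate 3 (5039 CPM, others 5096 to 7606) and medulla rehydration replicate 3 (2906 CPM, others 3091 to 5318), but lay inside the range of the others in cortex rehydration replicates 2 (10372 CPM) and 3 (11150 CPM). Those of the thick ascending limb were the highest in cortex control replicate 3 (4963 CPM, others 3345 to 4433) and cortex rehydration replicate 3 (5629 CPM, others 3122 to 4204) and inside the range in the other two. Medulla rehydration replicate 3 had the highest fibroblast and smooth muscle markers (674 CPM, others 276 to 571) and HBB of red blood cells (12.0 CPM, others 0.649 to 1.92) of its group. What part depth or cell makeup has in this component was not tested.

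**Figure D4:**
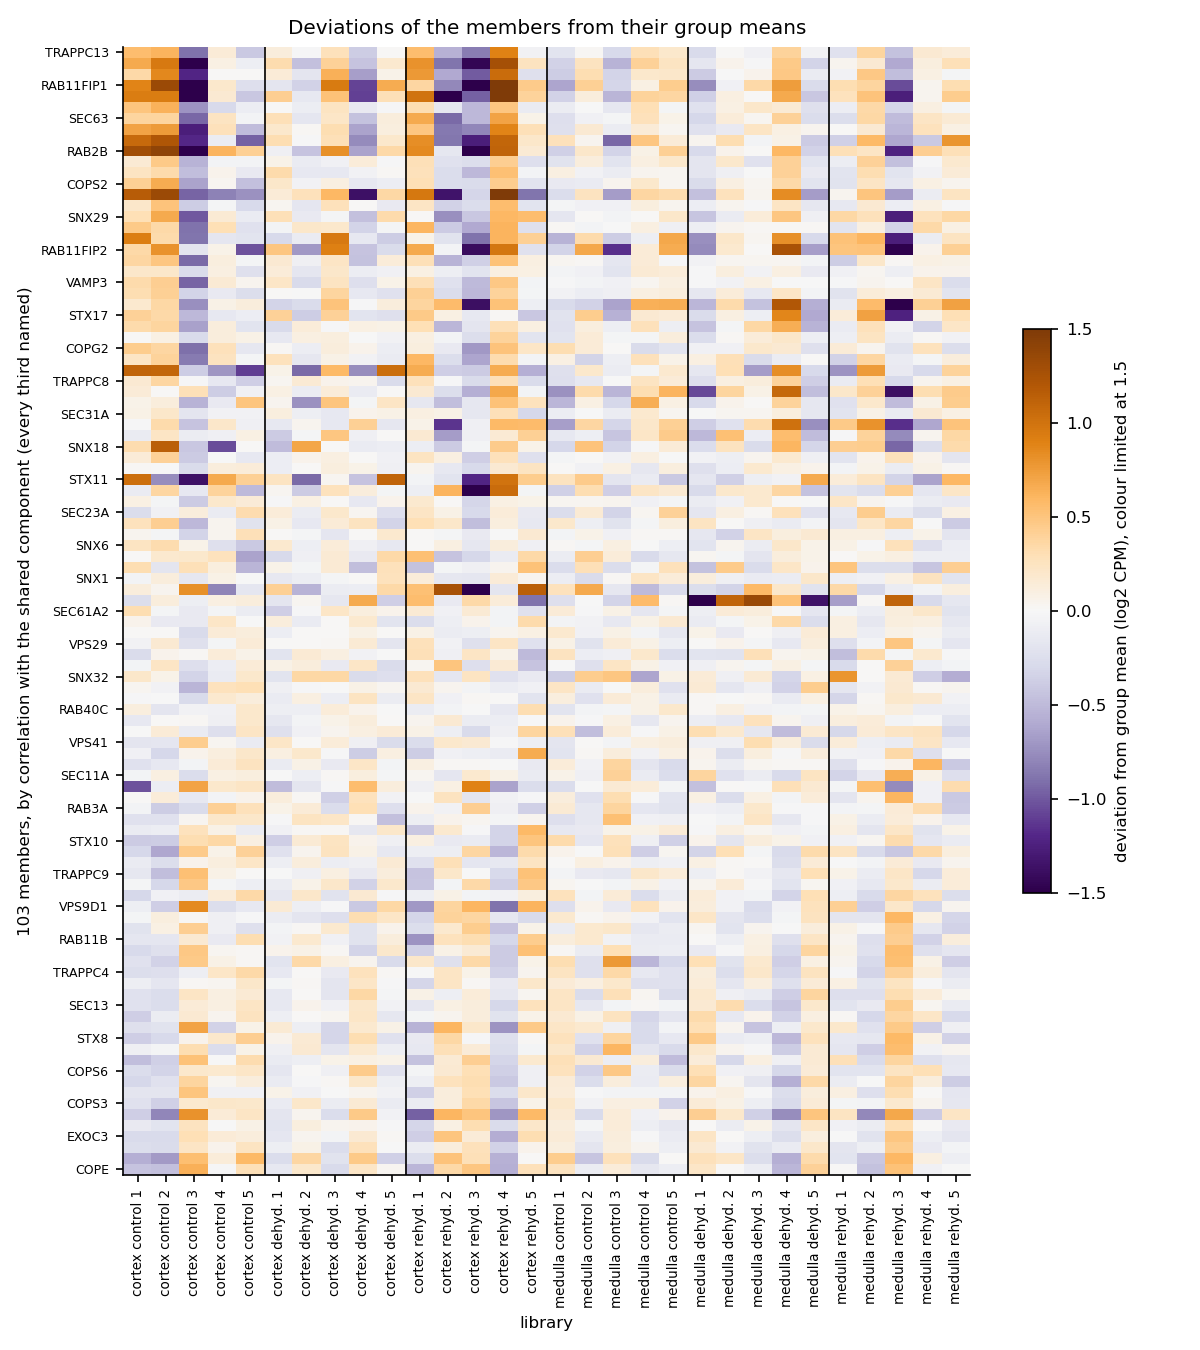
Deviation of each of the 103 members (rows, ordered by correlation with the shared component) from its group mean in log2 CPM, in each library (columns; black lines part the 6 groups; the colour scale stops at 1.5). Cortex control replicate 3 and medulla rehydration replicate 3 are low for RAB11FIP1 and RAB2B at one end of the rows and high for EXOC3 and COPE at the other, and cortex rehydration replicate 4 shows the reverse.

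The second comparison is between water conditions within each tissue. In the cortex, 85 members were in no RNA list of that tissue. None of them passed the test for dehydration against control (2.45% of all tested genes did), for rehydration against control (0.0845% of all tested genes did) or for rehydration against dehydration (2.32% of all tested genes did). DESeq2 called none of them in any of these contrasts either. The values for all tested genes, here and in the rest of this comparison, keep the study's RNA-listed genes, which the 85 members leave out. A lower share among the members is thus partly built in, and it cannot be read as a weaker response. At an unadjusted p under 0.05 there were 5 members (5.88%, beside 14.7% of all tested genes) for dehydration against control, 8 (9.41%, beside 8.28%) for rehydration against control and 14 (16.5%, beside 15.1%) for rehydration against dehydration. Their median log2 difference was -0.11 for dehydration against control, -0.03 for rehydration against control and 0.07 for rehydration against dehydration, with 0.00, 0.02 and 0.03 for all tested genes. The median size of the fitted difference was 0.17, 0.13 and 0.22 (log2) in the 3 contrasts, beside 0.25, 0.20 and 0.26 for all tested genes. Markers of cell types also differed between the cortex groups. A marker was matched only if its name stood in the study's lists or text, and many of those lists hold genes or proteins that differed between conditions. A marker may thus have been matched because it differed, so these sums are no independent measure of cell makeup. The 3 of 5 endothelial markers matched summed to 219 to 269 CPM in control, 356 to 423 CPM in dehydrated and 215 to 276 CPM in rehydrated camels, and the 2 of 5 of the thick ascending limb to 3345 to 4963, 5066 to 7746 and 3122 to 5629 CPM. The 4 of 10 of the proximal tubule summed to 5039 to 7606, 5359 to 11549 and 6837 to 15719 CPM in the same order, and no immune marker of 6 was matched. Their part in the members' differences between conditions was not tested.

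The 18 members that were RNA-listed in the cortex are described by their values, since these libraries chose them. SNX31, a sorting nexin, had 15.1, 19.6, 16.9, 19.3 and 19.6 CPM in the control cortex, 5.65, 6.55, 5.73, 10.3 and 4.91 CPM in dehydrated camels and 29.0, 17.8, 24.9, 21.6 and 10.5 CPM in rehydrated camels. The dehydrated libraries lay below all others of the cortex, with fitted log2 differences of -1.46 from control and 1.66 on rehydration, in the same libraries in which the endothelial markers were higher than in every other cortex library. SNX32, a relative of SNX6, had 3.84 to 5.61 CPM in control, 1.71 to 2.73 CPM in dehydrated and 3.23 to 4.58 CPM in rehydrated camels. VPS26C, the retriever subunit, had 6.40 to 12.0 CPM in control, 4.35 to 6.86 CPM in dehydrated and 6.08 to 12.1 CPM in rehydrated camels, where control replicate 5 alone of the control libraries reached into the dehydrated range. SNX7 had the reverse pattern, with 24.4 to 33.7 CPM in control and 35.8 to 46.3 CPM in dehydrated camels. COPS6 (log2 -0.59) and SNX24 (log2 -0.57) were lower in dehydrated than in control camels with overlap between libraries, and COPS5, the catalytic subunit of the COP9 signalosome, was 159.9 ± 19.4 CPM in control, 128 ± 15.2 CPM in dehydrated and 160.0 ± 17.1 CPM in rehydrated camels (SD, n = 5 each).

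A further group of these listed members was low in the rehydrated cortex. VPS35L, the scaffold of retriever, had 58.0 to 73.6 CPM in control and 55.4 to 67.4 CPM in dehydrated camels but 48.1, 52.5, 43.3, 43.4 and 46.7 CPM in rehydrated camels, below every other cortex library. VPS41, the HOPS subunit, had 62.9 to 86.6 CPM in the rehydrated cortex against 87.9 to 124 CPM in the dehydrated cortex, and VPS52, a subunit of GARP and EARP, had 67.2 to 95.1 CPM against 110.4 to 130.0 CPM. STX10, a syntaxin of the trans-Golgi network, was 15.9 ± 3.91 CPM in control, 19.3 ± 3.08 CPM in dehydrated and 11.3 ± 2.65 CPM in rehydrated camels (SD, n = 5 each), with overlap between the dehydrated and rehydrated libraries. COPRS (log2 -0.71 on rehydration) was without overlap between these groups. VPS9D1, a protein with a Rab-activating VPS9 domain, went the other way, with its highest cortex mean in rehydrated camels. It was 17.0 ± 6.91 CPM in control, 12.7 ± 2.50 CPM in dehydrated and 23.2 ± 10.3 CPM in rehydrated camels (SD, n = 5 each). The rehydrated libraries were spread widely, with 12.9, 27.4, 32.1, 11.2 and 32.3 CPM, and overlapped both other groups.

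In the medulla, 94 members were in none of the RNA lists used here for that tissue. None passed for dehydration against control (1.68% of all tested genes did) and none for rehydration against control (0.813% of all tested genes did), and DESeq2 called none either. At an unadjusted p under 0.05 there were 9 members (9.57%, beside 13.4% of all tested genes) and 5 (5.32%, beside 14.7%). As in the cortex, the values for all tested genes keep RNA-listed genes, which the 94 members leave out, so these are unlike sets. Their median log2 differences were 0.06 and -0.02, with 0.01 for all tested genes in both contrasts. For rehydration against dehydration 3 members passed (3.19%, with 3.67% of all tested genes called), and all were lower in rehydrated camels. VPS41 had 97.7, 97.5, 128, 113 and 84.8 CPM in dehydrated and 77.7, 66.7, 64.7, 82.9 and 63.7 CPM in rehydrated camels (log2 -0.55 ± 0.13 SE, adjusted p = 0.019). COPG2 had 43.5, 43.7, 52.1, 51.2 and 38.7 CPM in dehydrated and 31.5, 29.2, 24.6, 34.3 and 23.8 CPM in rehydrated camels (log2 -0.68 ± 0.19 SE, adjusted p = 0.046). ARFIP1, which binds Arf and Arl GTPases at the Golgi, had 65.6, 63.9, 69.7, 76.8 and 64.3 CPM in dehydrated and 42.9, 50.8, 59.4, 51.0 and 43.3 CPM in rehydrated camels (log2 -0.46 ± 0.13 SE, adjusted p = 0.044). The groups did not overlap in any of the 3 genes. In the control medulla COPG2 (31.5 to 47.4 CPM) overlapped both groups, while ARFIP1 (54.4 to 60.5 CPM) and VPS41 (67.8 to 83.7 CPM) overlapped the rehydrated libraries alone. The count of 3 ranged from 0 to 4 when single libraries were left out: it was 0 without medulla dehydration replicate 3 or replicate 4, and 1 without medulla dehydration replicate 1, medulla rehydration replicate 1 or medulla rehydration replicate 5. The COPG2 call was lost in 8 of the 10 fits that left out a library and the ARFIP1 call in 9 of 10. VPS41, RNA-listed for the cortex, lost the threshold without medulla dehydration replicate 3 (adjusted p = 0.073) or 4 (adjusted p = 0.054).

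**Figure D5:**
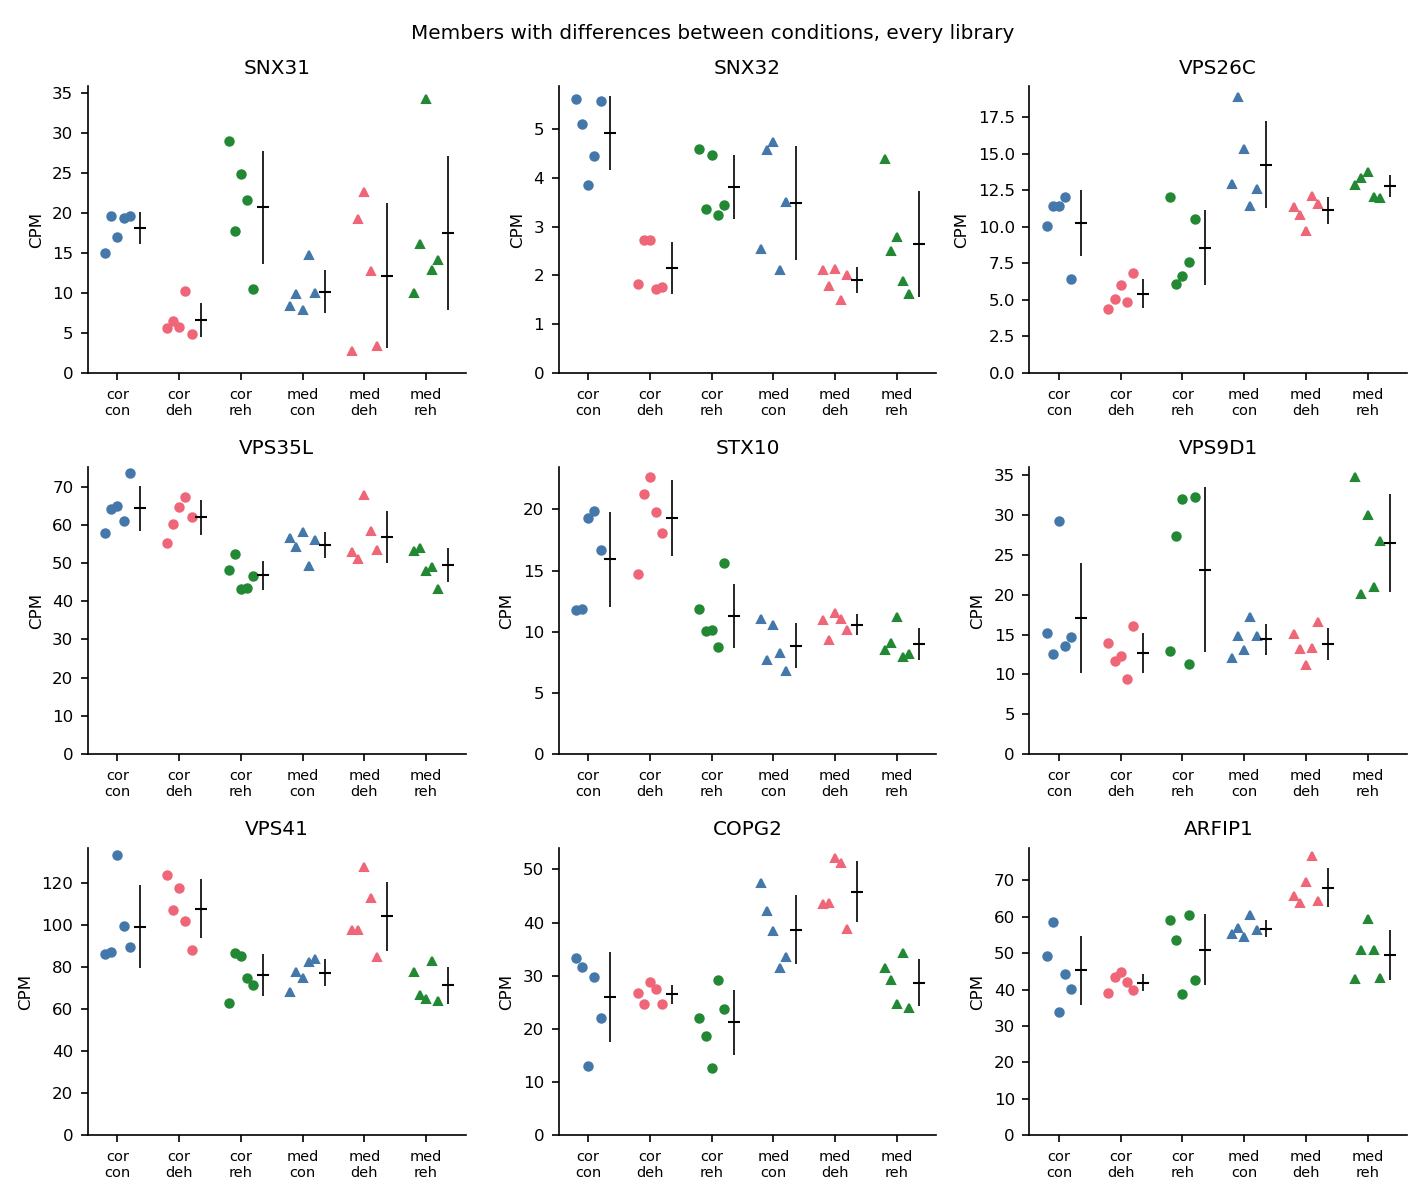
CPM (y axis, from 0) of 9 members in each library by group (x axis: cor, cortex; med, medulla; con, control; deh, dehydrated; reh, rehydrated), with the group mean and SD (n = 5) in black. SNX31, SNX32 and VPS26C have their lowest cortex means in dehydrated camels, VPS35L is lowest in the rehydrated cortex among the cortex groups, and VPS41, COPG2 and ARFIP1 are lower in the rehydrated than in the dehydrated medulla.

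Of the 9 members RNA-listed in the medulla, again described without a test, RAB37 had the largest difference. It had 6.78, 9.04, 5.01, 3.94 and 4.59 CPM in control, 1.70, 1.59, 3.12, 2.36 and 1.76 CPM in dehydrated and 5.84, 3.67, 4.23, 4.44 and 4.96 CPM in rehydrated camels. The dehydrated libraries lay below all the others of the medulla (log2 -1.48 from control and 1.14 on rehydration), while in the cortex RAB37 stayed at or below 1.72 CPM in every library. The single intercalated cell marker matched, ATP6V1B1 of 5, was also lower in these dehydrated libraries, with 109 to 168 CPM beside 219 to 288 CPM in control and 168 to 379 CPM in rehydrated camels. It too could be matched only through the study's lists or text, and its part in the RAB37 difference was not tested. VPS9D1 had 20.1 to 34.8 CPM in rehydrated camels, above every library of the control (12.1 to 17.3 CPM) and dehydrated (11.2 to 16.6 CPM) medulla. TRAPPC6B had 18.3, 22.6, 29.8, 21.2 and 21.8 CPM in rehydrated camels, below all 5 dehydrated libraries (30.5 to 34.3 CPM). RAB11B was 44.2 ± 4.44 CPM in control, 57.1 ± 6.77 CPM in dehydrated and 70.5 ± 15.2 CPM in rehydrated camels, and SEC61A1, the channel of the translocon, was 97.6 ± 3.73, 108 ± 9.11 and 147 ± 16.0 CPM in the same order (SD, n = 5 each). SNX32 was lower in the dehydrated medulla (1.49 to 2.13 CPM) than in control (2.12 to 4.73 CPM), with a slight overlap, and STXBP5, a tomosyn that restrains SNARE assembly, was higher (26.2 to 59.8 CPM against 20.7 to 29.2 CPM), also with overlap. SNX1 (log2 -0.36) and RAB11FIP5 (log2 -0.46) were lower in dehydrated than in control camels with overlap between libraries.

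Whether the response differed between the tissues was tested as an interaction. Of the 78 members in no RNA list, none passed for dehydration against control (0.0455% of all tested genes did) and none for rehydration against control (0% of all tested genes did), and DESeq2 called none. At an unadjusted p under 0.05 there were 4 members (5.13%, beside 7.56% of all tested genes) and 2 (2.56%, beside 5.07%). Again the shares of all tested genes keep RNA-listed genes, which the 78 members leave out. The fitted difference for RAB37, medulla minus cortex, was -1.85 ± 0.56 SE on the log2 scale for dehydration against control, that for SNX31 1.72 ± 0.58 SE and that for STXBP5 1.30 ± 0.30 SE. All 3 were RNA-listed and are given as values. SNX31 was spread widely in the dehydrated medulla, with 2.80, 19.2, 22.7, 12.8 and 3.39 CPM, beside 7.84 to 14.8 CPM in the control medulla.

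The members tied to the cycling of aquaporin 2 and other recycled cargo can be followed across conditions. AQP2 itself, RNA-listed and so not tested, was 286 ± 87.6 CPM in the control medulla, 502 ± 176 CPM in the dehydrated and 415 ± 69.2 CPM in the rehydrated medulla (SD, n = 5 each), and AQP3, the basolateral channel, was 66.4 ± 47.1, 171 ± 97.7 and 76.1 ± 39.5 CPM (dehydration against control log2 1.37, adjusted p = 0.17). In the same order of groups, RAB11FIP1 was 85.1 ± 25.9, 96.3 ± 38.0 and 103 ± 32.7 CPM, RAB11FIP2 was 10.2 ± 4.66, 15.4 ± 9.84 and 11.2 ± 4.57 CPM, and VAMP3 was 90.2 ± 4.25, 85.8 ± 3.13 and 75.6 ± 9.05 CPM. VAMP8 was 473 ± 119, 362 ± 90.6 and 356 ± 100.4 CPM, STX4 had 38.3 to 56.6, 37.4 to 63.3 and 41.8 to 61.3 CPM, and its partner STXBP3 was 70.8 ± 5.12, 83.7 ± 9.99 and 59.3 ± 7.30 CPM. None of these members passed the test between conditions of the medulla. RAB5A (96.2 ± 5.01, 107 ± 11.2 and 78.8 ± 7.04 CPM) and STXBP3 had no overlap between dehydrated and rehydrated libraries but adjusted p-values of 0.098 and 0.080 in edgeR's test. In the cortex and medulla contrasts of conditions, the exocyst subunits EXOC2, EXOC3, EXOC5, EXOC6B and EXOC8, the retromer subunits VPS26A and VPS29, and RAB3A did not pass either. SNX17, the adaptor that recruits retriever to receptors, was 94.8 ± 8.53, 91.4 ± 7.16 and 86.9 ± 6.01 CPM in the medulla.

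Other genes of the pathway that the prefixes leave out were counted from a list of 55 (among them NSF, clathrin light chains, adaptor subunits, COG subunits and cargo receptors). Of these, 35 differed between medulla and cortex of control camels, 15 towards the medulla and 20 towards the cortex, or 63.6% called beside 60.9% of all tested genes. AQP2 (log2 0.53 ± 0.22 SE, adjusted p = 0.042 in edgeR's test) and AQP3 (log2 3.13 ± 0.55 SE, adjusted p = 2.8e-05) were higher in the medulla. The AQP2 libraries overlapped, with 158 to 244 CPM in the control cortex and 184 to 413 CPM in the control medulla. Per the study the RNA of AQP2 in the medulla and of AQP3 in the cortex differed between dehydrated and control camels. Those control libraries thus took part in their selection. Between conditions, none of the 46 that were in no cortical RNA list passed in the cortex, and of the 53 in none of the medullary RNA lists used here only SPCS2, a signal peptidase subunit, passed in the medulla, lower in rehydrated than in dehydrated camels (log2 -0.41 ± 0.11 SE, adjusted p = 0.033).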

How the data were processed

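The authors trimmed the reads, aligned them to CamDro2 and counted read pairs per gene with featureCounts (version 1.6.2, reverse-stranded, Ensembl annotation), and deposited these counts without normalization; which aligner made the counted alignments is not settled by the sources. The members and lists were chosen with earlier results of these data known. The study's RNA list for rehydration against dehydration in the medulla and parts of its other lists were not used here, so the rule may leave out members, and members tested in that contrast may be RNA-listed for it. Counts were analysed in R 4.3.3 with edgeR 4.0.16: filterByExpr (minimum count 10, minimum total 15), TMM, all 30 libraries in 6 groups in a single fit, quasi-likelihood tests with bias-adjusted deviances, and p-values adjusted by Benjamini-Hochberg over all 15376 tested. Log2 CPM used a prior count of 2. Pairs of members were tested in scipy 1.17.1. The test was checked on counts simulated with known changes. The biological coefficient of variation was 34.0%, so at 12634346 to 20005136 counts per library the 5 animals per group set the precision of all but low counts. Named members were, first, those outside the RNA lists used here for a tissue that passed between its conditions. The 2 largest non-overlapping differences of each role between tissues and the 6 largest RNA-listed differences per contrast were also named. So were a fixed list tied to aquaporin 2 cycling and the pairs. Others were named after their values were seen. Alternatives were DESeq2 1.42.0, DESeq2's size factors (RLE) in edgeR, no filter, the RNA integrity number the study lists as a covariate, the tissue's libraries alone, replicate or animal blocks, each library left out, and, chosen after seeing the data, edgeR's legacy quasi-likelihood method. The titles number the libraries of each tissue and condition, and equal numbers were taken as the same camel. In rehydrated camels the numbers of the library codes differ between the tissues, so the codes pair other libraries than the titles do. Deviations of title pairs from group means correlated across tested genes by 0.14 on average in control, 0.09 in dehydrated and 0.05 in rehydrated camels. In rehydrated camels 4 pairs sharing the number of the library code correlated by 0.35 on average. Sequences of the members were not used here.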

Additional observations from a re-analysis of the deposited data

Results flagged for a closer look

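In 348 groups of 5 libraries (58 named members in 6 groups), 16 values (4.60% of the groups), in 8 libraries, lay far from the other 4 of their group on the log2 CPM scale. The rule flags about 1 group in 20 by chance where groups are independent. Many members moved together within a library, so these groups are not independent and the share cannot be set against that rate. Medulla rehydration replicate 3 gave 6 of the 16 values. In that library RAB2B was 7.86 CPM (others 22.0 to 25.2), RAB11FIP1 47.0 CPM (others 100.1 to 126.8), RAB11FIP2 3.51 CPM (others 10.4 to 14.3), RABGAP1 19.5 CPM (others 48.1 to 66.4) and SNX29 6.53 CPM (others 18.9 to 20.3), whereas EXOC3 was the highest at 108.6 CPM (others 67.5 to 77.2). Cortex control replicate 3 gave 4, with RAB2B at 0.197 CPM (others 5.38 to 10.7), VAMP3 at 39.1 CPM (others 78.1 to 102.3), STXBP5L at 1.77 CPM (others 3.22 to 3.93) and VPS9D1 the highest at 29.3 CPM (others 12.5 to 15.2). Without cortex control replicate 3, RAB11FIP1 (log2 2.59), EXOC5 (1.51), VAMP8 (-2.19) and EXOC3 (-1.35) still differed between the tissues of control camels.

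The other flagged values each stand alone in their library. EXOC5 was 1.03 CPM in cortex dehydration replicate 4 (others 3.13 to 4.31). EXOC6B was 3.97 CPM in cortex dehydration replicate 3 (others 1.51 to 1.82). VPS26C was 6.40 CPM in cortex control replicate 5 (others 10.0 to 12.0). SEC61A2 was 32.6 CPM in cortex control replicate 1 (others 23.7 to 25.7). RAB11FIP5 was 254.3 CPM in medulla control replicate 3 (others 148.6 to 167.5). RAB3A was 12.1 CPM in medulla dehydration replicate 3 (others 9.98 to 10.5).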

How the results depend on the processing

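The numbers of members past the threshold between the tissues ranged from 62 to 66 in control, 63 to 76 in dehydrated and 45 to 64 in rehydrated camels over the alternative tests and fits, and from 54 to 78 when single libraries were left out; of the 66 in control camels, 57 were called under every alternative test or fit and 52 also without each library in turn. With the animal as a replicate block, 64 members differed in control camels. For rehydration against dehydration in the medulla, where the fit gave 3 members, DESeq2 gave 5, the medulla libraries alone gave 6 and the same libraries with the replicate number as a block gave 5, while no filter on low counts, RNA integrity number as a covariate and the legacy quasi-likelihood method each gave 1; single libraries left out gave 0 to 4. VPS41 had an adjusted p of 0.051 in edgeR's test under that block. Animals of different conditions share only a number, and their deviations correlated by 0.01 in the cortex and 0.06 in the medulla on average. COPS2, RAB5A, SNX8, STXBP3 and VPS29 passed under some of these settings. In the cortex, SNX33 passed for rehydration against dehydration without cortex rehydration replicate 5, so that the count there ranged from 0 to 1. The other counts of 0 between conditions stayed at 0 under every alternative run, the replicate block included. The cause of these shifts was not tested. Between tissues of control camels, differences near 0 changed sign, none of them past the threshold: STXBP3 was 0.023 with DESeq2, 0.022 with RLE and 0.00064 with RNA integrity number as a covariate, and when single libraries were left out STXBP3 ranged from -0.11 to 0.079, VAMP3 from -0.00071 to 0.28, EXOC8 from -0.31 to 0.075 and ARFGAP3 from -0.045 to 0.25. Precision was limited by 5 animals per group, and for low members such as EXOC8 and cortical RAB37 also by counts.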
